A study of Mus musculus with 2 samples.

Results

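Melanoma cells recovered from the bones of Prf1-/- mice were compared with melanoma cells recovered from the lungs of wild-type (WT) mice, across all genes, in 1 pooled single-cell run. A cell was taken if its barcode held at least 1000 genes, had at most 15% of its unique molecular identifiers (UMIs) on mitochondrial genes, was listed in the hashtag matrix and had a largest hashtag count at least 2 times the second. Of the 15961 barcodes in the RNA matrix, 3132 passed this rule, and the comparison took 1612 of them, 385 from Prf1-/- bone and 1227 from WT lung. Another 1520 cells came from the lungs of Prf1-/- mice and are shown beside the comparison as a level. Site and host genotype both differed between bone and WT lung, so the effects of site and of perforin loss in the host cannot be told apart in the 2 groups alone.

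All 3 groups were B16F10, a GFP-marked mouse melanoma line of C57BL/6 origin, and the labels call the recovered cells MTCs. Prf1-/- denotes the host mice, which lack perforin, and not the tumour cells. WT lung and Prf1-/- lung tumours were resected and digested for 20 min, whereas Prf1-/- knees were cleaned, crushed and digested for 30 min, so handling went together with site. The sort kept living cells with GFP and without CD45, each source was stained with its own TotalSeq-B hashtag antibody, and equal proportions were pooled. Host age and the number of mice per source are not given in the sources used here. Each condition was a single hashtag group without replicates. No test was therefore made, and every interval is a 95% interval for counting error only, without the spread between animals or between cells.

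Perforin forms pores in the target cell membrane through which cytotoxic T cells and natural killer cells deliver granzymes. Interferon-gamma from the same lymphocytes induces in tumour cells the immunoproteasome, the peptide transporter and the MHC molecules that display peptides, while type I interferon mainly induces antiviral genes such as the Ifit family. B16F10 cells show little MHC class I without interferon and are a standard model of lung colonisation after intravenous injection, and they also colonise bone marrow.

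The 3 groups were close in depth. Totals were 1299480 UMIs in Prf1-/- bone, 4726709 in Prf1-/- lung and 3865546 in WT lung, with medians of 3107, 2826.5 and 2909 UMIs and 1473, 1397.5 and 1427 genes per cell, so the bone group was the least precise. The median share of mitochondrial UMIs was 1.89% in bone, 2.46% in Prf1-/- lung and 2.50% in WT lung. Of the bone-topped cells that passed the other filters, 47 had a largest hashtag under 2 times the second and were left out, 36 lay between 2 and 3 times, and 349 lay at 3 times or more. For WT lung those numbers were 97, 145 and 1082. Every cell of the 3 groups held at least 1 UMI of the 10 melanoma markers, such as Pmel, Dct and Mlana, whose summed level was 11203 UMIs per 1000000 (CPM) in bone, 14764 in Prf1-/- lung and 14516 in WT lung. All 9 T and natural killer cell markers stood at 0, including Prf1 itself, which melanoma cells do not make and which therefore does not check the host genotype. Macrophage and dendritic cell markers summed to 15.4, 10.2 and 25.1 CPM with Csf1r, Adgre1, Itgax and Flt3 at 0 in all 3 groups. Alveolar and airway epithelial markers summed to 19.2, 13.8 and 203 CPM, and 1 WT lung cell held 41.1% of the WT lung sum. Of the bone stroma markers only Bglap had UMIs in the bone group.

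A gene was measured if its mean over bone and WT lung was at least 20 CPM, which 5659 genes were. A gene under 20 CPM in 1 group was thus measured only through its level in the other. Among higher genes named below these were Akap12, H2-Aa, Sulf2, Cdca7, Slc16a7, Slc2a1, Bid, Ung and Elovl6. Some lower genes, such as S100a4, Emp1, App and Lgals3, were measured only through WT lung. A gene was called higher or lower when its ratio of CPM reached 1.5-fold with an interval that left out 1. In bone 109 of the 5659 genes (1.93%) were higher and 283 (5%) were lower, and at 2-fold the numbers were 15 and 40. With each cell thinned to 1500 UMIs the numbers at 1.5-fold were 172 and 252. The median log2 ratio over all measured genes was -0.02, with quartiles of -0.21 and 0.15, on the scale log2(CPM + 1). The gene that stood furthest out was Cck, at the top of the plot of bone against WT lung levels.

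**Figure D1:**
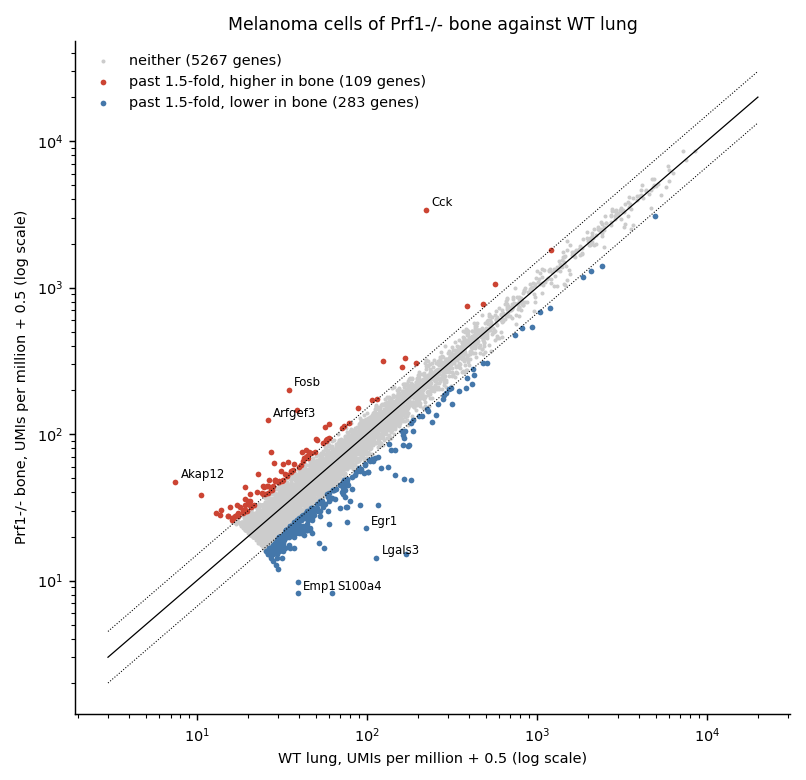
Level of each of the 5659 measured genes in Prf1-/- bone (vertical axis) against WT lung (horizontal axis), both in UMIs per 1000000 plus 0.5 on log scales. The solid line marks equal levels, the dotted lines mark 1.5-fold, and the 109 higher and 283 lower genes are coloured. Cck lies far above all others of its level.

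The members of the antigen presentation and interferon groups did not all move one way, and the promoters of 5 genes are shown here because the results turn on them. Cck and Fosb were among the genes furthest higher in bone, H2-Aa and Psmb8 were higher members of the MHC class II and immunoproteasome lists, and Ifit3 was a lower member of the type I interferon list. Each sequence is the 250 bases before a RefSeq transcript start (GRCm38.p6), 5′ to 3′ on the gene's own strand, in lower case with motif matches in capitals. The motifs were chosen after the values were seen and were searched on both strands: the cAMP response element TGACGTCA and its half-site TGACG (a full element holds a half-site on each strand), the interferon-gamma activated site TTCNNNGAA, and the interferon-stimulated response element, GAAA, any 2 bases, then GAAA. Of 32851 RefSeq promoters of the same length, 1.55% held the full cAMP response element, 17.8% the half-site, 7.02% the interferon-gamma activated site and 2.98% the interferon-stimulated response element. The windows lie at chr9:121495695-121495944 (minus strand), chr7:19310046-19310295 (minus strand), chr17:34197945-34198194 (plus strand), chr17:34287824-34288073 (minus strand) and chr19:34583279-34583528 (plus strand). Genes with several transcripts can begin further upstream: RefSeq places Ifit3 at chr19:34583119-34588982, so its window lies inside the gene, and Fosb at chr7:19302696-19310118, so its window overlaps the gene's 5′ end.
Cck: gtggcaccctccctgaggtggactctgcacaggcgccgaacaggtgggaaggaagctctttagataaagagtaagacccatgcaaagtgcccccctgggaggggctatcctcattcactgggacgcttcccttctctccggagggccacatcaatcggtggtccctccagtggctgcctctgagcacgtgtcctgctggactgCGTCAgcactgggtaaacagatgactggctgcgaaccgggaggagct
Fosb: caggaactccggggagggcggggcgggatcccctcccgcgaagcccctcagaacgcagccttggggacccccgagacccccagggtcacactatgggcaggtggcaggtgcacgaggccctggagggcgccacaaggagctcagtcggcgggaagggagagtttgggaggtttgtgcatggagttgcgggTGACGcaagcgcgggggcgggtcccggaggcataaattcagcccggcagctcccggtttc
H2-Aa: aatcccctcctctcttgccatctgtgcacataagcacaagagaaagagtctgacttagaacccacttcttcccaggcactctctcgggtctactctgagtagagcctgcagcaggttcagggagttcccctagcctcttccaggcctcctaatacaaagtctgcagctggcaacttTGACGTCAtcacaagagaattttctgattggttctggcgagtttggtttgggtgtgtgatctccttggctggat
Psmb8: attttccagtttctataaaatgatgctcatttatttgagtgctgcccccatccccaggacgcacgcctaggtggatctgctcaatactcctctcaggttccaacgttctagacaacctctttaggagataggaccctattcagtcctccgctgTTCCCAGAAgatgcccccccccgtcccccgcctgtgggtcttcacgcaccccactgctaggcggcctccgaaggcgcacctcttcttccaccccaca
Ifit3: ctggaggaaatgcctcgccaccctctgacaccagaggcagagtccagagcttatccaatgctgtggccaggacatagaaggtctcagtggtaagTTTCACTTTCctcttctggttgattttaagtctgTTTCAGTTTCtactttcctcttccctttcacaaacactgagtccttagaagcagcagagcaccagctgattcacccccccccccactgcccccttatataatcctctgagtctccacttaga

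In these windows Cck had a cAMP response element half-site 47 bases before the start, and Fosb had one 60 bases before the start. H2-Aa held the full cAMP response element 74 bases before the start. Psmb8 had an interferon-gamma activated site 97 bases before the start, and Ifit3 had interferon-stimulated response elements 156 and 122 bases before it. Among measured members with a promoter in the table, the interferon-stimulated response element was in 11 of 25 type I interferon genes, in 4 of 5 interferon-inducible GTPases, in 2 of 9 MHC class I genes, in 0 of 2 MHC class II genes and in 0 of 6 immunoproteasome genes. The interferon-gamma activated site was in 3 of 25, 2 of 5, 0 of 9, 0 of 2 and 1 of 6 genes of the same lists in that order. The cAMP half-site was in 2 of 25, 1 of 5, 7 of 9, 2 of 2 and 2 of 6 of them, in 9 of 13 immediate-early genes and in 4 of 9 genes linked to cAMP signalling. The full element was in 1 of the 2 MHC class II genes, in 1 of 13 immediate-early genes, in 1 of 9 genes linked to cAMP signalling and in none of the other 4 lists. A match describes the letters only and no binding was measured.

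Cck (ENSMUSG00000032532), which encodes the peptide hormone cholecystokinin, stood at 3402 CPM in Prf1-/- bone, 293 in Prf1-/- lung and 223 in WT lung. Bone was far above both lung groups, which lay close together, and the bone to WT lung ratio was 15.3 (14.2 to 16.5). That of bone to Prf1-/- lung was 11.6 (10.9 to 12.4), and that of Prf1-/- lung to WT lung was 1.31 (1.21 to 1.43). These pairs share groups and are given side by side. Of 20 genes on the list of peptide hormones and their processing only 3 were measured. Cck was higher, against 1.93% of all genes, and the 2 others were lower in bone, against 5%. Cpe, carboxypeptidase E, stood at 105, 177 and 167 CPM in bone, Prf1-/- lung and WT lung, a bone to WT lung ratio of 0.627 (0.517 to 0.756). Pam, which amidates peptide ends, stood at 41.6, 54.2 and 64.9 CPM, a ratio of 0.640 (0.468 to 0.862).

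The Cck UMIs lay in a minority of bone cells. At least 1 Cck UMI was found in 149 of 385 bone cells (38.7%, exact Clopper-Pearson interval 33.8 to 43.8%), in 11.8% of Prf1-/- lung cells and in 164 of 1227 WT lung cells (13.4%, 11.5 to 15.4%). After thinning to 1500 UMIs per cell these shares were 35.3%, 8.89% and 9.29%. The share of cells with a Cck UMI that free RNA produces was not measured, so cells with at least 10 Cck UMIs were also counted. There were 97 such cells in bone (25.2%, 20.9 to 29.8%), 38 in Prf1-/- lung (2.50%, 1.78 to 3.42%) and 24 in WT lung (1.96%, 1.26 to 2.90%). At 50 UMIs or more the numbers were 41, 3 and 1 cells. The 97 Cck-high bone cells held 96.8% of all Cck UMIs of the bone group, and no bone cell held more than 3.03% of them. Outside the Cck-high cells the level was 146 CPM in bone and 86.4 CPM in WT lung, which gives a ratio of 1.69 (1.38 to 2.07). The second hashtag was that of bone in 45.8% of the 24 Cck-high cells and in 47.1% of the other WT lung cells.

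**Figure D2:**
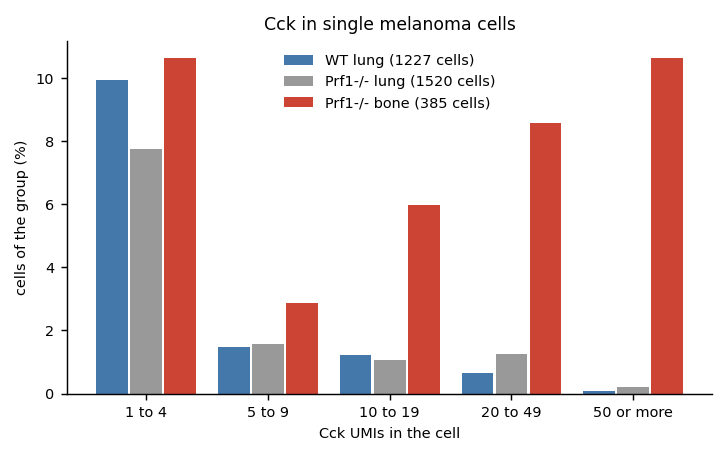
Share of cells (vertical axis, percent of each group) by the number of Cck UMIs in the cell (horizontal axis), for 1227 WT lung, 1520 Prf1-/- lung and 385 Prf1-/- bone cells; cells with 0 Cck UMIs are not drawn. Cells with 10 or more Cck UMIs made up 25.2% of the bone group and 1.96% of the WT lung group.

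Several other genes high in bone were concentrated in the same cells. Arfgef3, a regulator of secretory granules, stood at 124 CPM in Prf1-/- bone, 38.3 in Prf1-/- lung and 25.6 in WT lung, a bone to WT lung ratio of 4.84 (3.74 to 6.28). Within bone it was at 305 CPM in Cck-high cells and 61.1 CPM in the others, and without Cck-high cells in either group its ratio was 2.66 (1.88 to 3.74). Hgsnat, a lysosomal enzyme of heparan sulphate breakdown, stood at 145, 48.2 and 38.3 CPM in bone, Prf1-/- lung and WT lung, with a ratio of 3.80 (3.05 to 4.74) that became 2.68 without Cck-high cells. These 2 genes thus stayed past 1.5-fold in the remaining cells. Gsta4, a glutathione transferase that clears lipid peroxidation products, stood at 749, 446 and 389 CPM, a ratio of 1.92 (1.77 to 2.09). It was at 1474 CPM in Cck-high and 497 CPM in other bone cells, and its ratio without Cck-high cells was 1.29 (1.17 to 1.44), which is under 1.5-fold. Ucp2, a carrier of the inner mitochondrial membrane, was at 95.7 CPM in Cck-high and 38.3 CPM in other bone cells. Since the cells were divided by Cck, these differences within bone are a description of 1 group of cells.

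Other genes far higher in bone, Ucp2 included, kept ratios past 1.5-fold without Cck-high cells. Akap12, a scaffold that anchors protein kinase A, stood at 46.9 CPM in Prf1-/- bone, 11.8 in Prf1-/- lung and 6.98 in WT lung, with a bone to WT lung ratio of 6.72 (4.21 to 11), and within bone it was at 29.9 CPM in Cck-high cells against 52.9 CPM in the others. Its ratio without Cck-high cells in either group was 7.41 (4.56 to 12.3). Fosb (ENSMUSG00000003545), a subunit of the AP-1 transcription factor, stood at 200.1 CPM in Prf1-/- bone, 34.3 in Prf1-/- lung and 34.1 in WT lung. Its ratio was 5.86 (4.73 to 7.28), both lung groups were at the same level, and 40.8% of bone cells against 7.74% of WT lung cells had a UMI (24.7% and 4.89% after thinning). Fosb was at 236 CPM in Cck-high and 188 CPM in other bone cells, and its ratio without Cck-high cells was 5.46 (4.33 to 6.89). Lmo1, a LIM-domain transcriptional cofactor, stood at 315, 185 and 124 CPM in the same order, a ratio of 2.53 (2.21 to 2.89). Sulf2, which trims sulphate from extracellular heparan sulphate, Cenpv, a centromere protein, and Ucp2 had ratios of 2.31, 2.26 and 2.36, which were 2.10, 2.46 and 1.73 without Cck-high cells. Within bone Sulf2 was at 53.8 CPM in Cck-high and 39.4 CPM in other cells and Cenpv at 44.8 and 69.4 CPM. Mt2, a metallothionein that binds zinc and copper, had a ratio of 1.98 (1.75 to 2.24), and Pycard, the adaptor of the inflammasome, one of 1.97 (1.60 to 2.43). Lmo1, Mt2 and Pycard had ratios of 2.57, 2.05 and 1.98 without Cck-high cells. Of these, Akap12, Lmo1 and Sulf2 had Prf1-/- lung levels between WT lung and bone, and for Ucp2, Cenpv and Pycard the lung groups were close to each other.

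**Figure D3:**
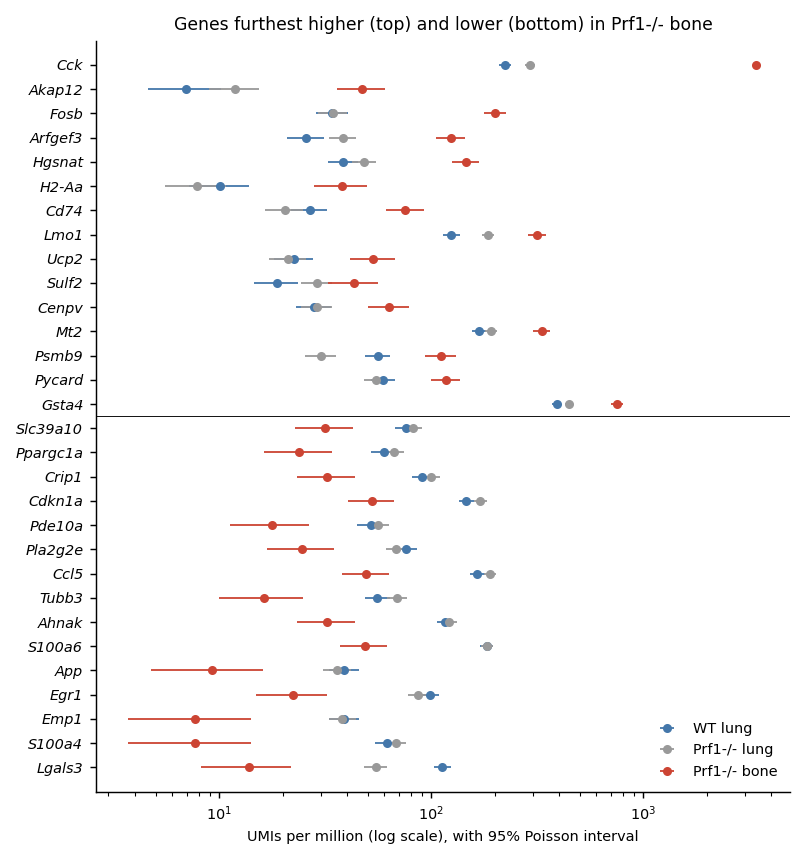
Level in UMIs per 1000000 (horizontal axis, log scale) of the 15 genes furthest higher (top) and the 15 furthest lower (bottom) in Prf1-/- bone against WT lung, one gene per row; points are the summed level of a group and bars are exact 95% Poisson intervals. In the 15 upper rows the bone point lies to the right of both lung points, and in the 15 lower rows it lies to the left of both.

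Genes of antigen processing were higher in bone in part. The immunoproteasome replaces catalytic subunits of the proteasome and yields peptides that fit MHC class I. Psmb8 (ENSMUSG00000024338), 1 of these subunits, stood at 287 CPM in Prf1-/- bone, 77.9 in Prf1-/- lung and 160.1 in WT lung, and Psmb9, another, stood at 111, 30.0 and 55.9 CPM. For both genes bone was highest, Prf1-/- lung was lowest and WT lung lay between. Their bone to WT lung ratios were 1.79 (1.57 to 2.04) and 1.98 (1.59 to 2.46), their bone to Prf1-/- lung ratios were both 3.69, and their Prf1-/- lung to WT lung ratios were 0.486 and 0.538. All 6 measured members of the immunoproteasome list had a ratio above 1 in bone and 2 were called higher, against 1.93% of all genes. Psme2, Psmb10, Psme1 and Pomp, the activator subunits, the last catalytic subunit and the assembly chaperone, had ratios of 1.24, 1.17, 1.15 and 1.02 and were not called. The list median was 0.27 on the log2 scale, against -0.02 over all genes. It was 0.87 for bone over Prf1-/- lung and -0.61 for Prf1-/- lung over WT lung.

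MHC class II, which displays peptides to CD4 T cells, showed a wider gap. H2-Aa (ENSMUSG00000036594), the class II alpha chain, stood at 37.7 CPM in Prf1-/- bone, 7.83 in Prf1-/- lung and 10.1 in WT lung, a ratio of 3.74 (2.40 to 5.85). Cd74, the invariant chain that guides class II molecules, stood at 75.4 CPM in Prf1-/- bone, 20.3 in Prf1-/- lung and 26.6 in WT lung, a ratio of 2.83 (2.12 to 3.77). Both lung groups were low and bone was above both for either gene. Ifi30, a thiol reductase of the antigen processing compartment, was the third measured member of 10 on the list, with a ratio of 0.760 (0.599 to 0.955). H2-Aa was under 20 CPM in WT lung and was measured only through its bone level, so the list median rests on few members and on this filter. A UMI of H2-Aa, H2-Ab1, H2-Eb1 or Cd74 was present in 104 bone cells (27.0%, 22.6 to 31.7%), 85 Prf1-/- lung cells (5.59%, 4.49 to 6.87%) and 96 WT lung cells (7.82%, 6.38 to 9.47%). All 104 bone cells also held melanoma marker UMIs, with a median of 35 against 34 in the bone cells without class II. Of the 104, 11 held a UMI of macrophage, B cell or pan-immune markers other than Coro1a, as did 16 of the 281 other bone cells. No bone cell held more than 3.92% of the class II UMIs. The share of class II in free RNA was not measured, and its part in the result was not tested.

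MHC class I genes were near equal in bone and WT lung. None of the 9 measured members of the class I and peptide loading list was called, and their median was 0.16. B2m, the light chain of every class I molecule, stood at 1046, 971 and 1087 CPM in bone, Prf1-/- lung and WT lung, a ratio of 0.963 (0.905 to 1.02). H2-K1 and H2-D1, the heavy chains, had ratios of 1.19 and 1.12. Tap1, a subunit of the peptide transporter, had the highest at 1.38 (1.06 to 1.80), and Tapbp, tapasin, the lowest at 0.701 (0.502 to 0.961). The sign of this median depended on the filter on cells and genes: it was -0.03 in cells with at least 1500 genes and -0.12 with no filter on low values. Mouse TotalSeq hashtag antibodies bind MHC class I and CD45, and barcodes with fewer than 503 hashtag counts were not listed. The median hashtag total was 726 counts in bone, 1098 in Prf1-/- lung and 794 in WT lung. In the 6270 filtered cells not listed in the hashtag matrix the summed level of the class I list was 3380 CPM, below the 4616, 3886 and 4247 CPM of bone, Prf1-/- lung and WT lung, and the immunoproteasome sum was 861 CPM against 1413, 847 and 1131 CPM. The part of this selection in the antigen presentation result was not tested. In cells of bone and WT lung with hashtag totals in a shared range of 624 to 945 counts, the class I median was 0.29 and the immunoproteasome median 0.57.

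The interferon-inducible GTPases, which attack vacuoles of intracellular parasites, gave none called of 6 measured. Iigp1 stood at 141 CPM in Prf1-/- bone, 53.9 in Prf1-/- lung and 111 in WT lung, a ratio of 1.27 (1.06 to 1.51), and Gbp7 had a ratio of 1.26 (1.01 to 1.56). The list median was 0.17 for bone over WT lung, 0.97 for bone over Prf1-/- lung and -0.90 for Prf1-/- lung over WT lung. No member reached 1.5-fold against WT lung in this group, and the Prf1-/- lung level of Iigp1 was the lowest of the 3.

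The type I interferon list went the other way. Of 32 measured members, 8 were lower in bone, against 5% of all genes, 1 was higher and 27 had a log2 ratio below 0, with a median of -0.24. The lower genes were Irf9, a subunit of the factor that binds the interferon-stimulated response element, Ifit1, Ifit2 and Ifit3, which bind viral RNA, Isg15 and its protease Usp18, Ddx58, a sensor of viral RNA, and Samd9l. Ifit3 (ENSMUSG00000074896), whose promoter is printed above, stood at 104 CPM in Prf1-/- bone, 102 in Prf1-/- lung and 187 in WT lung. Bone and Prf1-/- lung were close and WT lung was higher, with a WT lung to bone fold of 1.80 (1.49 to 2.17). Irf9 stood at 16.9, 28.1 and 34.4 CPM, a fold of 2.03 (1.29 to 3.35). Ifit1, Isg15 and Ddx58 had bone to WT lung ratios of 0.608, 0.615 and 0.662. Mndal, a nuclear DNA-binding protein of the same list, was the 1 higher gene, with a ratio of 1.60 (1.23 to 2.08). Bst2 and Zbp1 had ratios of 0.992 and 0.983. For bone over Prf1-/- lung the list median was 0.17 and for Prf1-/- lung over WT lung it was -0.50.

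**Figure D4:**
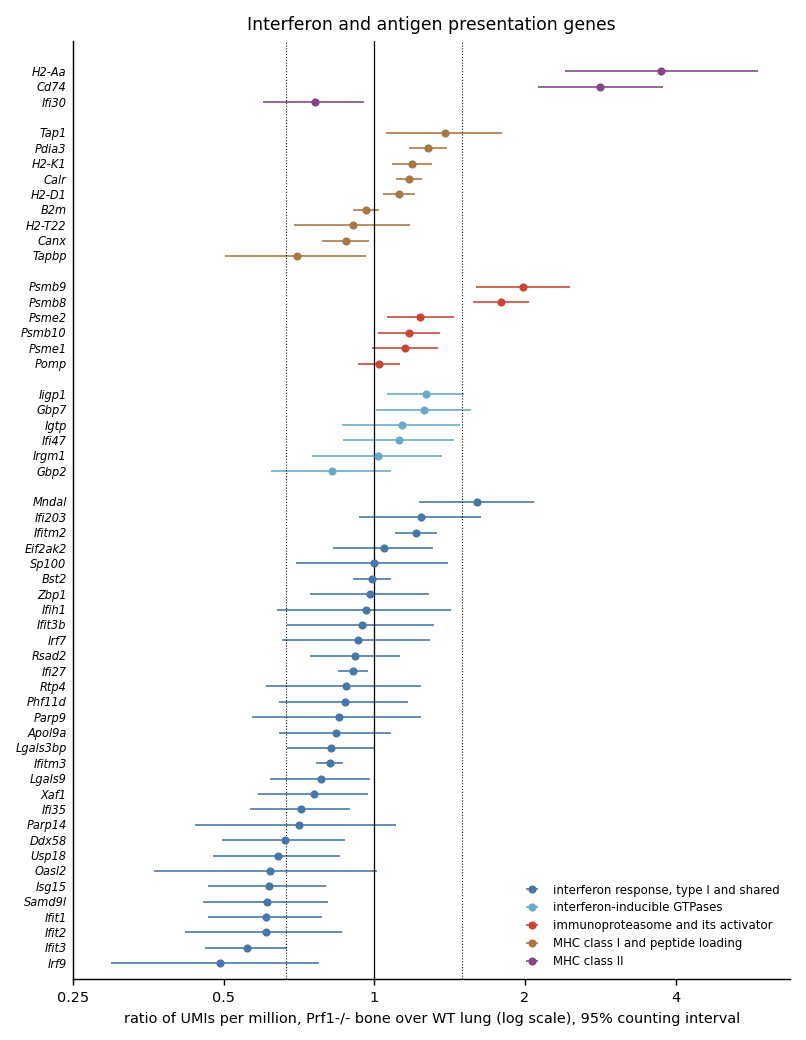
Ratio of UMIs per 1000000 in Prf1-/- bone over WT lung (horizontal axis, log scale) for the measured members of 5 lists, with 1 type I interferon gene left out, one gene per row, with exact 95% counting intervals; the solid line marks equal levels and the dotted lines mark 1.5-fold up and down. H2-Aa, Cd74, Psmb9, Psmb8 and Mndal lie past the upper line, and 8 type I interferon genes lie past the lower one with intervals that leave out 1.

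Of the interferon-gamma signalling genes, Jak1 and Ptpn2 had ratios of 1.20 and 1.03. Irf1 stood at 25.4, 25.2 and 36.0 CPM in bone, Prf1-/- lung and WT lung. Socs3, a feedback inhibitor of cytokine receptors, was the 1 lower gene of 6, against 5% of all genes, with a fold of 1.80 (1.22 to 2.76). Among 3 measured chemokines and cytokines, Ccl5, which attracts T cells, stood at 49.3 CPM in Prf1-/- bone, 189.8 in Prf1-/- lung and 165 in WT lung, a fold of 3.35 (2.58 to 4.40). Only 2.86% of bone cells had a Ccl5 UMI and 1 cell held 34.4% of them. Cxcl10, which attracts cells with the receptor CXCR3, had a ratio of 0.734 (0.650 to 0.826) and Mif, an abundant cytokine, 1.39 (1.33 to 1.45), and neither was called. Of 4 measured NF-kB response genes 2 were lower, against 5% of all genes. These were Ccl5 again and Nfkbia, the inhibitor of NF-kB, with a ratio of 0.599 (0.384 to 0.904). Of 6 measured genes that bear on killing by lymphocytes, 1 was higher, against 1.93% of all genes, and 2 were lower, against 5%. Bid, which links death receptors and granzyme B to mitochondria, was higher with a ratio of 1.67 (1.08 to 2.53). Without Cck-high cells in either group the ratio of Bid was 1.43 (0.854 to 2.31), with an interval that held 1. Cflar, an inhibitor of death receptor signalling, and Cd47, the signal against uptake by macrophages, were lower, with folds of 1.59 and 1.70. Serpinb6a, Casp8 and Nectin2 were not called.

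The immediate-early genes, which respond within minutes to growth factors, stress and tissue handling, did not move together. Of 16 measured members, 2 were higher in bone, against 1.93% of all genes, and 6 were lower, against 5%, with a median of -0.31. Fosb (above) and Jun were the higher genes, and Jun stood at 768, 588 and 479 CPM in bone, Prf1-/- lung and WT lung, a ratio of 1.60 (1.48 to 1.73). Egr1, a zinc finger factor, was the lowest, at 22.3, 86.1 and 98.0 CPM, a fold of 4.39 (3.01 to 6.65). Junb, Atf3, Nr4a1, Nr4a3 and Ier3 were lower as well, with folds of 2.11, 2.05, 1.95, 1.85 and 1.55, whereas Fos, the partner of Jun, had a ratio of 0.959 (0.884 to 1.04). In the lower genes both lung groups stood close together and bone stood apart. Bone was digested for 30 min and lung for 20 min, and the part of handling in these differences was not tested. Among 12 heat shock chaperones, another stress group, none was called, and Hsp90aa1 and Hsp90ab1 had ratios of 0.988 and 1.15.

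Genes linked to cAMP signalling were mixed as well, with 1 higher and 4 lower of 11, against 1.93% and 5% of all genes. Akap12 was the higher gene. Ppargc1a, a coactivator of mitochondrial genes, stood at 23.9, 66.4 and 59.5 CPM in bone, Prf1-/- lung and WT lung, a fold of 2.49 (1.71 to 3.76). Crem, Nr4a3 and Mc1r, the melanocortin receptor that raises cAMP in pigment cells, were lower with folds of 1.51, 1.85 and 1.53. Pde10a, a phosphodiesterase that breaks down cAMP, was among the 15 genes furthest lower at 17.7, 56.1 and 51.7 CPM, a fold of 2.92 (1.89 to 4.72).

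Among growth genes some of those of S phase were higher in bone. Of 43 measured genes of DNA replication, 4 were higher, against 1.93% of all genes, none was lower and 33 had a log2 ratio above 0, with a median of 0.16. Cdca7, a chromatin factor of S phase, stood at 31.6, 9.94 and 15.3 CPM, a ratio of 2.07 (1.35 to 3.13). Ung, which removes uracil from DNA, Cdt1, which licenses replication origins, and Rpa2, which coats single-stranded DNA, had ratios of 1.66, 1.62 and 1.56. Cdca7 and Ung were under 20 CPM in WT lung and were measured only through their bone level. Without the UMIs of its top cell in each group the ratio of Ung was 1.51, with an interval that held 1 (0.941 to 2.39). None of 40 mitotic genes was called, with a median of 0.04, and Ccnb2 and Hmgb2 were the highest at 1.44 and 1.44. With cells thinned to 1500 UMIs, at least 5 UMIs of the replication list were present in 40.5% (35.6 to 45.6%) of bone cells, 29.6% (27.3 to 31.9%) of Prf1-/- lung cells and 32.4% (29.8 to 35.1%) of WT lung cells. For the mitotic list the shares were 38.2% (33.3 to 43.2%), 28.5% (26.2 to 30.8%) and 31.1% (28.5 to 33.8%). Without thinning they were 64.7%, 49.3% and 50.5% for replication and 57.4%, 42.4% and 46.0% for mitosis.

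Of 9 measured D cyclins and G1 inhibitors 2 were lower, Cdkn1a and Ccnd2, against 5% of all genes, and the list median was -0.12. Cdkn1a, which encodes the p21 inhibitor of cyclin-dependent kinases, stood at 52.3 CPM in Prf1-/- bone, 170.1 in Prf1-/- lung and 146 in WT lung, a fold of 2.79 (2.17 to 3.65), and the lung groups were close to each other. The other inhibitors were not called: Cdkn1b, Cdkn2c, Cdkn2d and Rbl2, a relative of the retinoblastoma protein, had ratios of 0.952, 0.921, 0.738 and 1.38. Of 9 measured p53 targets, 4 were lower, against 5% of all genes, Cdkn1a among them, and none was higher, with a median of -0.54. Plk2, Phlda3 and Mdm2, the ubiquitin ligase of p53, were lower with ratios of 0.474, 0.627 and 0.665. Bax and Ccng1 had ratios of 0.772 and 0.683 and Rps27l one of 1.02, and these were not called. Ccnd2, cyclin D2, stood at 306, 538 and 506 CPM and was lower, while Ccnd1 and Cdk4 had ratios of 0.890 and 1.09.

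Pigment cell genes mostly lay below their WT lung level but within 1.5-fold of it. Of 23 measured genes of melanosomes and melanin synthesis, 3 were lower, against 5% of all genes, none was higher and 2 had a log2 ratio above 0, against 46.8% of all genes, with a median of -0.39. Mlana, a melanosome protein, stood at 1304 CPM in Prf1-/- bone, 2104 in Prf1-/- lung and 2084 in WT lung, a fold of 1.60 (1.52 to 1.69). Myo5a and Mlph, the motor and adaptor that carry melanosomes, had folds of 1.57 and 1.66. Dct, Tyrp1 and Tyr, the enzymes of melanin synthesis, had ratios of 0.725, 0.760 and 0.750, and Pmel, the fibril protein, had 0.896. Among 11 lineage factors 5 were lower, against 5% of all genes. Besides Ppargc1a and Mc1r these were Met, Erbb3 and Tfap2a, 2 receptor kinases and a neural crest factor, with folds of 1.69, 1.71 and 1.64. The master regulator Mitf was at 393, 441 and 457 CPM, a ratio of 0.860 (0.778 to 0.949), and Sox10 had 0.869. The list medians for bone over Prf1-/- lung were -0.36 for melanosome genes and -0.37 for lineage factors, and those for Prf1-/- lung over WT lung were 0.02 and 0.03.

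The mesenchymal and dedifferentiation genes were the list with most calls. Of 17 measured members, 12 were lower in bone, against 5% of all genes, and none was higher, with a median of -0.81. Among the lower ones S100a4, Emp1, App, Tubb3 and Cdh2 were under 20 CPM in bone and were measured only through WT lung. The count and the median thus rest in part on this filter. S100a4 and S100a6, calcium-binding proteins of motile cells, stood at 7.70, 68.3 and 61.6 CPM and at 48.5, 183 and 182 CPM in bone, Prf1-/- lung and WT lung. Their folds were 8.00 (4.28 to 16.9) and 3.76 (2.90 to 4.94), and for both the interval of the ratio between the lung groups held 1. Emp1, a membrane protein, Ahnak, a giant scaffold beneath the membrane, Tubb3, a neuronal tubulin, and App, the amyloid precursor protein, had folds of 5.04, 3.60, 3.44 and 4.20. Vim, the intermediate filament of mesenchymal cells, stood at 1411 CPM in Prf1-/- bone, 2662 in Prf1-/- lung and 2404 in WT lung, a fold of 1.70 (1.62 to 1.79). Fn1, fibronectin, had a ratio of 1.07 (0.694 to 1.60), so the matrix gene of the list did not go with the others. Crip1, a LIM-domain protein outside the list, stood at 32.3, 99.9 and 90.3 CPM, a fold of 2.79 (2.02 to 3.95). For bone over Prf1-/- lung the list median was -0.86 and for Prf1-/- lung over WT lung 0.03.

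All 7 measured S100 genes had a ratio below 1 and 5 were lower, against 5% of all genes, with a median of -0.83, and 2 of the 5, S100a4 and S100a6, are also counted in the mesenchymal list. S100a1, S100a13 and S100a10 had folds of 1.89, 1.79 and 1.51. Among galectins, which bind galactosides, Lgals3 was the 1 lower member, against 5% of all genes. It stood at 13.9 CPM in Prf1-/- bone, 54.6 in Prf1-/- lung and 113 in WT lung, a fold of 8.14 (5.09 to 13.9), and here the lung groups differed too, with a Prf1-/- lung to WT lung ratio of 0.484 (0.413 to 0.566). In bone 18 UMIs of Lgals3 came from 2.60% of cells and 1 cell held 44.4% of them. Lgals1 had a ratio of 0.823. Spp1, osteopontin, was the 1 measured gene of 17 matched on a list of bone metastasis genes. It stood at 207, 182 and 141 CPM, a ratio of 1.47 (1.26 to 1.70), and without Cck-high cells its log2 ratio was -0.18.

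Several of these genes, such as Lgals3, Vim and S100a4, are also high in macrophages and fibroblasts. Epithelial markers were higher in WT lung, as given above, but mainly through single cells. Without cells that held at least 2 UMIs of epithelial, macrophage, fibroblast or mesothelial markers, an analysis chosen after seeing the data that left 382 bone and 1217 WT lung cells, 113 genes were higher and 283 lower. Sftpc, the surfactant gene of alveolar cells, was far lower in bone (14.6, 9.94 and 168 CPM in bone, Prf1-/- lung and WT lung) and was left out of the 15 furthest lower genes because 1 WT lung cell held over 25% of its UMIs.

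Adhesion and cytoskeleton genes were mostly within 1.5-fold, and their calls stand against 1.93% of all genes higher and 5% lower. Of 33 measured actin genes 4 were lower: Tagln2, an actin-bundling protein, Cnn2, a calponin, Arpc1b, a subunit of the Arp2/3 complex, and Diaph1, a formin, with folds of 1.98, 1.76, 1.60 and 1.59. Actb was at 1.05 and the list median was -0.13. Of 12 integrin and focal adhesion genes Ptk2, focal adhesion kinase, was lower with a fold of 2.15 (1.35 to 3.58), and Itgb1 and Tln1 had ratios of 1.03 and 0.943. Of 10 genes of the YAP pathway, which reads mechanical tension, Myof was lower with a fold of 1.74 and Yap1 had a ratio of 1.39 (0.902 to 2.10). None was called of 7 matrix genes, where Sparc had a ratio of 0.855, or of 8 TGF-beta and BMP genes, where Id2 had one of 1.48 (1.21 to 1.80).

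**Figure D5:**
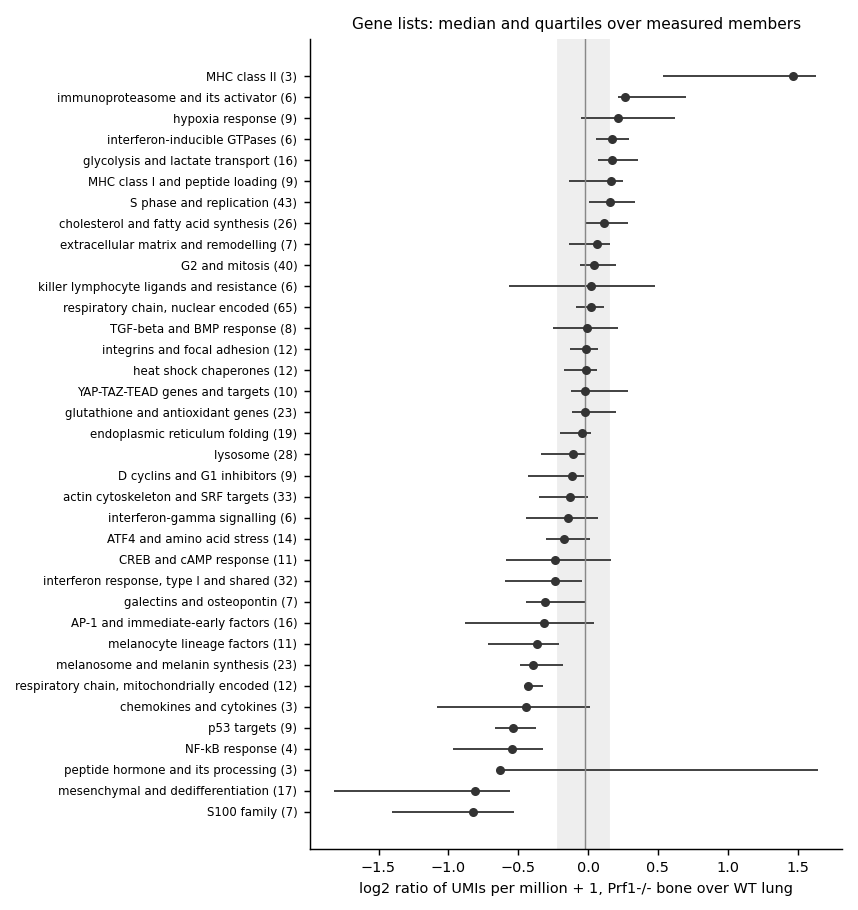
Median (point) and quartiles (line) of the log2 ratio of UMIs per 1000000 plus 1, Prf1-/- bone over WT lung (horizontal axis), for each list with at least 3 measured members, whose number is in parentheses; the grey line and band are the median and quartiles over all 5659 genes. MHC class II lies furthest to the right at 1.47, with 3 of 10 members measured and H2-Aa measured only through its bone level. The S100 and mesenchymal lists lie furthest to the left at -0.83 and -0.81. Both hold S100a4, and the mesenchymal list also holds Emp1, App, Tubb3 and Cdh2, which were measured only through WT lung, as was S100a4.

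Some genes of glycolysis were higher in bone. Of 16 measured members 4 were higher, against 1.93% of all genes, none was lower and 14 had a ratio above 1, against 46.8% of all genes with a log2 ratio above 0, with a median of 0.17. Slc16a7, a transporter of lactate and pyruvate, and Slc2a1, the glucose transporter GLUT1, had ratios of 1.93 (1.33 to 2.79) and 1.69 (1.07 to 2.61). Both were under 20 CPM in WT lung and were measured only through their bone level. Without the UMIs of its top cell in each group the ratio of Slc2a1 was 1.59 (0.993 to 2.50). Without Cck-high cells it was 1.63 (0.982 to 2.65), and both of these intervals held 1. Eno1, enolase, stood at 303, 201 and 194 CPM in bone, Prf1-/- lung and WT lung, a ratio of 1.56 (1.38 to 1.77), and Pfkl, phosphofructokinase, had 1.52 (1.25 to 1.85). Gapdh and Tpi1 were closer, at 1.21 and 1.06. Of 9 hypoxia genes 3 were higher, against 1.93% of all genes: Slc2a1, Egln1, the oxygen sensor that marks HIF for breakdown, with 1.55 (1.25 to 1.90), and Bnip3, a mediator of mitophagy. Bnip3 stood at 46.9, 48.9 and 29.8 CPM, so its Prf1-/- lung level was as high as that of bone.

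Of 12 measured genes encoded in the mitochondrial genome 11 had a ratio below 1 and 2 were lower, against 5% of all genes. The lower ones were mt-Co3 with a fold of 1.60 (1.54 to 1.65) and mt-Nd2 with 1.53 (1.43 to 1.65). The median of the 12 mitochondrially encoded genes was -0.43, whereas the 65 nuclear genes of the respiratory chain gave no call and a median of 0.02. The median mitochondrial share per cell, used in the cell filter, was lower in bone, as given above. With cells limited to at most 8% mitochondrial UMIs, 112 genes were higher and 286 lower. This limit kept 384 of the 385 bone cells and all 1227 WT lung cells, so the numbers could hardly change. The part of mitochondrial content in the calls was not tested.

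The remaining lists had 1 to 3 calls or none each, against 1.93% of all genes higher and 5% lower. In sterol and fatty acid synthesis 2 of 26 genes were higher, Mvd, an enzyme of the mevalonate pathway, with 1.80 (1.42 to 2.27), and Elovl6, a fatty acid elongase, with 1.57 (1.03 to 2.36), which fell below 1 after thinning (log2 ratio -0.31). Lysosomal genes gave Hgsnat as the 1 higher member of 28, with Grn, progranulin, and Scarb2, a lysosomal membrane receptor, lower at folds of 1.77 and 1.55. Of 23 antioxidant genes Gsta4 was higher, and Gstm1, another glutathione transferase, and Tfrc, the transferrin receptor, were lower at folds of 1.97 and 1.59. Nupr1, a stress-induced chromatin protein, stood at 58.5, 106 and 121 CPM and was the 1 lower gene of 14 in the ATF4 group, with a fold of 2.07 (1.62 to 2.67). None of 19 genes of endoplasmic reticulum folding was called, and Hspa5 had a ratio of 0.971. Outside these lists, Pla2g2e, a secreted phospholipase, and Slc39a10, a zinc importer, were among the genes furthest lower, at 24.6, 68.1 and 76.3 CPM and 31.6, 81.7 and 75.5 CPM, folds of 3.10 (2.15 to 4.61) and 2.39 (1.72 to 3.41).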

How the data were processed

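The 2 libraries of the run, polyadenylated RNA and hashtag oligonucleotides (10x 3′ v3), were used as the UMI count matrices that the authors deposited. Per the submitters' processing notes the build was mm10 and the tools included Seurat 4.3.0 and Cell Ranger 6.1.2, whereas the version per the file headers is cellranger 6.0.0. Gene and barcode name lists were used as deposited, and gene names are those the files pair with identifiers. Of the RNA barcodes 11757 (73.7%) were not in the hashtag matrix and entered no group. The 6270 of these that passed the cell filter are only set beside the groups for a few values. No doublet caller was run. A cell with 2 strong hashtags was left out, and doublets within 1 hashtag are not seen.

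UMIs were summed over the cells of a group and divided by its total, as CPM. Levels have exact Poisson, ratios exact conditional binomial and shares exact Clopper-Pearson intervals at 95%. Log2 ratios had 1 CPM added. A count of 0 allows up to 3 UMIs, or 2.31 CPM in bone, 0.635 in Prf1-/- lung and 0.776 in WT lung. Named genes were, per side, the 15 of largest absolute log2 ratio that had at least 50 UMIs, an interval wholly beyond 1.5-fold and no cell with over 25% of the UMIs in the higher group, without mitochondrial, ribosomal and unnamed genes, and for each list the 2 most abundant and 2 most extreme members and those called. Of these, 1 gene is not reported here, though its lists are counted with it. The groups, lists and rules were chosen with earlier results of these data known. The calculation was tested on simulated Poisson counts with known folds. They held no spread between cells or animals, so they cannot check the intervals against it. Python 3.11.15, numpy 2.4.6, pandas 2.3.3, scipy 1.17.1 and matplotlib 3.10.9 were used, and R 4.3.3 with Seurat 5.3.0 for 1 alternative hashtag call. The 19 alternatives concern the hashtag call, cell filters, depth, weighting, scaling, pseudocount, low values, fold and groups of cells.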

Additional observations from a re-analysis of the deposited data

Results flagged for a closer look

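A signal appeared in cells that entered neither group of the comparison of bone with WT lung. Filtered cells without an entry in the hashtag matrix have no group, and of these 6270 cells 282 (4.50%, exact Clopper-Pearson interval 4.00 to 5.04%) had at least 10 Cck UMIs, above the 1.96% (1.26 to 2.90%) of WT lung cells and below the 25.2% of bone cells. Their median depth was 2418 UMIs, against 2909 UMIs in WT lung. Which site these cells came from was not tested.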

How the results depend on the processing

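With 1 group per condition, nothing here measures the spread between animals, and the 385 bone cells set the precision. No paired analysis was possible because each condition was 1 group without replicates. Of 2856 alternative values of named genes 2663 moved by no more than their counting error, 191 moved further and 2 reversed. A reversal was counted only among the 1479 values of called genes, so changes of sign in genes not called are not counted as such. The 2 alternatives that change only the filter on low values could not move the log2 ratio of a gene, and their values count as not moved. Of 592 list medians 569 stayed within an interval from the median lower to the median upper bound of their members, 15 moved and 8 reversed. Such an interval is about as wide as that of a single gene, and for G2 and mitosis it ran from -0.33 to 0.44. Staying within it is thus a loose criterion. Only a median whose own interval left out equal levels could count as reversed. Changes of sign in other lists, such as G2 and mitosis, are not counted as such.

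The number of higher and lower genes (109 and 283) was 172 higher with cells thinned to 1500 UMIs (65 shared), 226 and 187 in cells with at most 1 mitotic UMI (72 bone and 345 WT lung cells; 43 and 83 shared), 166 higher in the shared hashtag range (61 shared), 176 higher at a mean of at least 10 CPM, 267 and 522 with no filter on low values, and 15 and 40 at 2-fold. The cause was not tested, except that a looser filter measures more genes and a higher fold admits fewer. The median of MHC class I and peptide loading, 0.16, was -0.0312 in cells with at least 1500 genes, 0.29 in the shared hashtag range and -0.12 with no filter. The median of MHC class II, 1.47, was 0.41 in cells with at least 1500 genes, 2.03 in cells with few mitotic UMIs and 0.80 with no filter. The median of immunoproteasome and its activator, 0.27, was 0.57 in the shared hashtag range, and the median of G2 and mitosis, 0.04, was -0.38 in cells chosen for few mitotic UMIs. The 25.2% of bone cells with at least 10 Cck UMIs was 18.4% after thinning and 40.3% in cells with few mitotic UMIs. The median of chemokines and cytokines, -0.45, was 0.0425 with hashtags at least 5 times the second, 0.0051 in cells with few mitotic UMIs and 0.014 at a mean of at least 10 CPM. The median of bone metastasis genes, 0.55, was -0.18 without Cck-high cells, -0.15 at a mean of at least 10 CPM and -0.33 with no filter. The log2 ratio of Elovl6 was -0.31 after thinning and -2.06 in cells with few mitotic UMIs. For the reversed and moved medians the cause was not tested. No scaling moved the median over all genes by 0.1, and the median-of-ratios factor was 1.00.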
